A study of Mus musculus with 7 samples.

Results

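The genes described here encode the insulin-like growth factor 1 receptor and the insulin-like growth factor binding proteins. They were taken by symbol, as Igf1r or Igfbp followed by a single digit, and for a symbol with several transcripts the row with the highest mean was used. The deposited table held 6 such genes, Igf1r, Igfbp2, Igfbp3, Igfbp4, Igfbp5 and Igfbp7, of 12071 gene symbols. Igfbp1 and Igfbp6 were not analysed here. RNA sequencing had been run on CCE, a feeder-free line of mouse embryonic stem cells, as 1 ribosomal-RNA-depleted library per day. The libraries of days 1 to 6 came from cells given 5 µM retinoic acid, a ligand of nuclear receptors made from vitamin A, after leukemia inhibitory factor (LIF) had been withdrawn, and that of day 0 from cells in medium with LIF, treated with DMSO. The day thus stands for retinoic acid, loss of LIF and time in culture together, and no untreated culture of a later day was analysed here. No day had a replicate, and nothing in the labels tells whether each day was its own culture. Every p-value below thus measures the spread of single libraries around a line on day, or around a curve for the squared-day term.

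IGF1 and IGF2 are secreted growth factors that activate the IGF1 receptor, a tyrosine kinase at the cell surface which signals through insulin receptor substrates to the PI3K-AKT and ERK pathways. IGF binding proteins are secreted proteins that hold these ligands, carry and protect them, and limit or prolong their access to the receptor. Proteases that cleave the binding proteins release the ligand, and the IGF2 receptor, which has no kinase, takes IGF2 into lysosomes. In embryonic tissues this system controls growth, with Igf2 as its main ligand.

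The table gives log2 values that were whole read counts per RefSeq transcript times 1 factor per library, not divided by transcript length. The reads recovered from it came to 7194325 (day 6, the fewest) to 17923852 (day 4, the most). Reads were scaled so that the floor of a library equals 1 read, and a constant added to the counts before scaling cannot be told apart from none, so a listed read count may be too high by such a constant. Levels are given below as log2 normalized reads, comparisons between genes as normalized reads per kilobase of transcript, and intervals as exact 95% counting intervals, which do not cover the spread between cultures. The day 6 library stood apart from the others. Its difference from day 5 fell with transcript length across the 12071 genes (Spearman rho −0.70, a description across genes), with a median log2 difference of −2.66 in transcripts of at least 4000 nt and 1.64 in those up to 1500 nt. Slopes are therefore given over days 0 to 5 and over days 0 to 6. Of 7 stem cell markers, Pou5f1, Sox2, Nanog, Zfp42, Esrrb and Tdgf1 fell over days 0 to 5, where 22.1% of all genes fell. Klf4 had a slope of −0.11 log2 units per day (limma adjusted p = 0.684). All 7 stood between 11.46 and 14.40 on day 0, the library labelled as embryonic stem cells.

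All 6 genes had a start region listed by RefSeq for GRCm38.p6, 250 bases before to 50 bases after the start of transcription. The regions of the 3 genes that rose are shown, with that of Igfbp2, the chromosome 1 neighbour of Igfbp5 that did not rise (1 of 2 listed regions), and that of Igf1r, the receptor and the one with a retinoic acid receptor half-site. Each sequence runs 5′ to 3′ on the gene's strand, and capitals mark a match to one of 5 motifs on either strand. The half-sites of retinoic acid receptors were searched as AGGTCA and as GGGTCA, the TATA box as TATAAA, the GC box as GGGCGG and the E-box as CACGTG.
Igfbp5, chr1:72874816-72875115, minus strand: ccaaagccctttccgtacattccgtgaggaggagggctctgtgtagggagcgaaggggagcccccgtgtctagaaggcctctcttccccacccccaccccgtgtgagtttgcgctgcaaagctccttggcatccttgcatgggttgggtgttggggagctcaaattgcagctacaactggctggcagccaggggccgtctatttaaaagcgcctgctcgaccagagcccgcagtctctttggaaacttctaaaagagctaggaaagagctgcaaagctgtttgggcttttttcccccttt
Igfbp4, chr11:99040994-99041293, plus strand: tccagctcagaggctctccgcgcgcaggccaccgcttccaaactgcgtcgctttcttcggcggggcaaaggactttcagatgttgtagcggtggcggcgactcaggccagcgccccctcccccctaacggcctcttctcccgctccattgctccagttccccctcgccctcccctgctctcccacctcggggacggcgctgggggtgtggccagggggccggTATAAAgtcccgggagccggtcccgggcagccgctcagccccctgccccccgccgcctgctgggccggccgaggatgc
Igfbp3, chr11:7213874-7214173, minus strand: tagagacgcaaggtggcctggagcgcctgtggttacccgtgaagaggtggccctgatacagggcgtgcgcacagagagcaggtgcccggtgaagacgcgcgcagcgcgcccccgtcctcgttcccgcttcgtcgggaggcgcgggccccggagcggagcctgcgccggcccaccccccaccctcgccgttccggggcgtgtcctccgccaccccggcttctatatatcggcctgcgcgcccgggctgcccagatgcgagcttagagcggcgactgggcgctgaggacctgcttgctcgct
Igfbp2, chr1:72824230-72824529, plus strand: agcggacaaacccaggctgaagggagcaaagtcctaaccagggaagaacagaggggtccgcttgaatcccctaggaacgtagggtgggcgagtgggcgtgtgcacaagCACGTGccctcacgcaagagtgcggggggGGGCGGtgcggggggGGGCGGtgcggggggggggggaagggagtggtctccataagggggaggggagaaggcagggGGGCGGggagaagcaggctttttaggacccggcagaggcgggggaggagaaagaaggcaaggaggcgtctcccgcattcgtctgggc
Igf1r, chr7:67952007-67952306, plus strand: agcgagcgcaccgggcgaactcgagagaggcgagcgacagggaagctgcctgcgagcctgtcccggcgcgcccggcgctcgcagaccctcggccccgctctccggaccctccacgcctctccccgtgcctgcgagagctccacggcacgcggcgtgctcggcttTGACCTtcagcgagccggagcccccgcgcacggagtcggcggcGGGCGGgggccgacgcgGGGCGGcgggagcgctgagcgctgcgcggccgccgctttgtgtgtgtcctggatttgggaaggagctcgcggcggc
Igf1r held 1 AGGTCA, on the other strand, and 2 GGGCGG. Igfbp2 held 3 GGGCGG and 1 CACGTG, Igfbp7 4 GGGCGG, and Igfbp4 1 TATAAA, while these letters were not found in the windows of Igfbp3 and Igfbp5. Of 32851 RefSeq start regions of the same length, 16.3% held AGGTCA, 13.7% GGGTCA, 13.6% TATAAA, 35.7% GGGCGG and 7.15% CACGTG. A match is a string of letters and not a shown binding site.

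**Figure D1:**
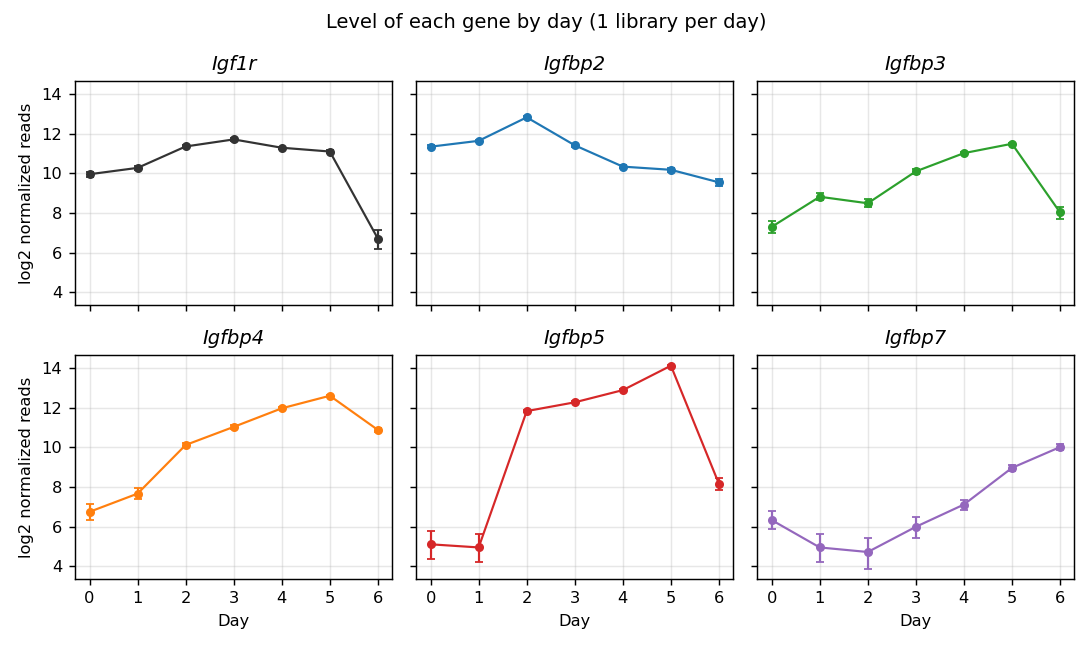
Log2 normalized reads of the 6 genes (y axis) by day (x axis), 1 library per day, with exact 95% Poisson counting intervals as bars. Igfbp5 stood at 11.83 on day 2, against 4.95 on day 1, Igfbp2 was highest on day 2 and Igf1r on day 3, and Igfbp7 was the gene that stood above its day 5 level on day 6.

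The receptor gene Igf1r (NM_010513, chromosome 7, 75097142 to 75378553 in mm9, plus strand, 11999 nt) was expressed before treatment and stood highest in the middle of the course. Its level was 9.95, 10.27, 11.35, 11.71, 11.29, 11.10 and 6.71 across days 0 to 6, from 516, 719, 1484, 1680, 2272, 1833 and 38 reads. The 5 libraries of days 1 to 5 lay above day 0, and the day 6 library below it. Day 3 was 3.38-fold above day 0 (log2 1.76, counting interval 1.61 to 1.90) and day 5 2.21-fold (log2 1.14, 1.00 to 1.29; 0.75 after correction for transcript length). Over days 0 to 5 the slope was 0.26 ± 0.10 (SE) log2 units per day and did not pass the test (limma adjusted p = 0.0750); without day 5 it was 0.41 (limma adjusted p = 0.0325), without day 0 0.16 (limma adjusted p = 0.372) and with the length correction 0.17 (limma adjusted p = 0.150). With day 6 the slope was −0.29 ± 0.28 (limma adjusted p = 0.518), so that this 1 library turns its direction. The squared-day term, which tests whether the course bends, was −0.15 ± 0.039 (limma adjusted p = 0.124).

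Igfbp2 was the most abundant of the 5 binding protein genes per kilobase on days 0 to 3 and stood lower from day 4 on. This gene (NM_008342, chromosome 1, 72871076 to 72899045, plus strand, 1308 nt) encodes a binding protein that also carries an integrin-binding motif. Its level was 11.34, 11.64, 12.82, 11.41, 10.34, 10.18 and 9.54 across days 0 to 6. It thus peaked on day 2, came back to within counting error of day 0 on day 3 (log2 0.069, interval −0.040 to 0.18), and lay below it on days 4 to 6. Day 2 was 2.79-fold above day 0 (log2 1.48, counting interval 1.39 to 1.57), and day 5 had a log2 difference of −1.17 (−1.29 to −1.05; −0.77 after correction for length). The slope over days 0 to 5 was −0.32 ± 0.16 per day (limma adjusted p = 0.138), and it passed the test as a fall once the day 2 peak was left out (−0.27, limma adjusted p = 0.0357). Without day 0 it was −0.54 (limma adjusted p = 0.0639) and without day 5 −0.22 (limma adjusted p = 0.438). With day 6 it was −0.39 ± 0.13 (limma adjusted p = 0.119).

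Igfbp5, its neighbour on chromosome 1, was scarce on days 0 and 1 and abundant from day 2 to day 5. The gene (NM_010518, 72904638 to 72921439, minus strand, 5858 nt) encodes a binding protein that also attaches to extracellular matrix. The pair lies tail to tail with a gap of 5592 bases. The level of Igfbp5 was 5.11, 4.95, 11.83, 12.27, 12.88, 14.12 and 8.16 across days 0 to 6. Its reads numbered 18, 18, 2062, 2478, 6864, 14845 and 104. The libraries of days 0 and 1 did not differ beyond counting error (log2 −0.16, interval −1.18 to 0.87), and those of days 2 to 6 all lay above both.

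The step of Igfbp5 from day 1 to day 2 was the largest upward step of the 12071 listed genes between those libraries. Day 2 stood 117-fold above day 1 (log2 6.87, interval 6.21 to 7.63). Day 5 stood 513-fold above day 0 (interval 8.34 to 9.76 on the log2 scale), which ranked 7th among the 12071 genes. Over days 0 to 5 Igfbp5 rose by 1.98 ± 0.35 per day (limma adjusted p = 0.00637), and it passed the test in each of the 6 fits that left out 1 library (slopes 1.70 to 2.29). The straight line describes a course with a single large step poorly, and with weights by read depth (voom) the slope was 1.47. Once day 6 was included the slope was 1.02 ± 0.53 (limma adjusted p = 0.255).

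Igfbp4 rose, and each library up to day 5 stood above that of the day before. It (NM_010517, chromosome 11, 98902573 to 98913957, plus strand, 2070 nt) encodes a binding protein that inhibits IGF action and is cut by the protease PAPPA. Its level was 6.75, 7.67, 10.12, 11.03, 11.97, 12.60 and 10.88 across days 0 to 6, from 5192 reads on day 5, against 56 on day 0. Each of the 6 later libraries lay above day 0, and the step from day 1 to day 2 was the widest (log2 2.45, counting interval 2.17 to 2.75). Day 5 stood 57.7-fold above day 0 (log2 5.85, 5.47 to 6.26). Igfbp4 rose by 1.23 ± 0.11 per day over days 0 to 5 (limma adjusted p = 0.00192) and by 0.86 ± 0.20 over days 0 to 6 (limma adjusted p = 0.0473). The rise over days 0 to 5 passed in all 6 fits that left out 1 library (slopes 1.17 to 1.38), while the one over days 0 to 6 was lost when day 0, 1, 2, 3, 4 or 5 was left out (limma adjusted p from 0.0787 to 0.194), with the 40th percentile filter (limma adjusted p = 0.0561) and with the length correction (limma adjusted p = 0.0671).

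Igfbp3 rose as well, by less than Igfbp4, and most of its difference from day 0 arose after day 2. The gene (NM_008343, chromosome 11, 7106095 to 7113926, minus strand, 2445 nt) encodes the main IGF carrier of serum, where it forms a complex with the acid-labile subunit. Its level was 7.30, 8.82, 8.49, 10.10, 11.02, 11.49 and 8.03 across days 0 to 6. All 6 later libraries lay above day 0, and day 2 lay slightly below day 1 (log2 −0.33, counting interval −0.60 to −0.059). Day 5 stood 18.2-fold above day 0 (log2 4.19, 3.87 to 4.53), from 2405 reads against 82. Igfbp3 rose by 0.83 ± 0.089 per day over days 0 to 5 (limma adjusted p = 0.00248), in all 6 fits that left out 1 library (slopes 0.79 to 0.90). With day 6 the slope was 0.36 ± 0.24 (limma adjusted p = 0.362), and the difference of day 6 from day 0 was 0.73, or 1.59 with median-centring.

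Igfbp7 was the last to stand high, after a low on days 1 and 2. The gene (NM_001159518, chromosome 5, 77778264 to 77837070, minus strand, 1219 nt) encodes a relative that binds IGFs weakly and lies in the matrix around vessels. Its level was 6.33, 4.95, 4.72, 5.99, 7.12, 8.97 and 10.01 across days 0 to 6. The reads behind these levels were 42, 18, 15, 32, 126, 418 and 376, so days 1 and 2 cannot be told apart (log2 −0.23, counting interval −1.32 to 0.84), while day 1 lay below day 0 (−1.38, −2.26 to −0.55). Day 5 stood 6.19-fold above day 0 (log2 2.63, 2.17 to 3.12), and its step from day 4 to day 5 (1.85, 1.56 to 2.15) ranked 13th among the 12071 genes. The slope over days 0 to 5 was 0.60 ± 0.23 (limma adjusted p = 0.0734) and did not pass, but it passed without day 0 (1.04, limma adjusted p = 0.0152), with voom weights (0.88, limma adjusted p = 0.0151) and with the length correction (0.68, limma adjusted p = 0.0436). It was weakest without day 5 (0.26, limma adjusted p = 0.447), and did not pass without day 1 (0.54, limma adjusted p = 0.161) or with quantile normalization (0.52, limma adjusted p = 0.169). With day 6 it was 0.77 ± 0.20 (limma adjusted p = 0.0586), 0.90 with voom weights (limma adjusted p = 0.0370) and 1.12 without day 0 (limma adjusted p = 0.0480).

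The other listed Igfbp7 transcript, NM_008048 with 1125 nt, had 19, 5, 8, 26, 140, 471 and 424 reads across days 0 to 6. Its level was 5.19, 3.11, 3.82, 5.70, 7.27, 9.14 and 10.19 across those days. It thus also had a low on days 1 and 2 and rose later, but over a wider range. It stood below the transcript used above on days 0 to 3 and above it on days 4 to 6. The folds, slopes and 4-fold counts of Igfbp7 rest on the transcript used, which the longest-transcript alternative also kept, and would differ for this one. Both transcripts can share reads. The gene's 3′ end overlaps that of Polr2b, an RNA polymerase II subunit gene on the plus strand, by 89 bases. Polr2b stood at 11.43 on day 5, against 12.12 on day 0. The library kit keeps the strand, but no source used here gives the strand setting of the counting, so reads from that stretch cannot be assigned, and its part in the low early values of Igfbp7 was not tested.

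Counted together, 3 of the 6 genes rose and 0 fell over days 0 to 5, where 25.9% of all 12071 genes rose and 22.1% fell (48% in either direction). At an unadjusted p under 0.05 in limma 5 of the 6 had an upward slope and 0 a downward one, where 30.4% of all genes had an upward and 26.2% a downward one. With voom weights 4 of 6 rose, against 24.9% of all genes, and with the length correction 4 of 6, against 25.2%. The median slope of the 6 was 0.72 log2 units per day, against 0.013 over all genes. With day 6 included, 1 of the 6 rose and 0 fell, where 2.58% of all genes rose and 5.2% fell (7.78% in either direction). With voom weights 2 of the 6 then rose, against 2.30% of all genes. At an unadjusted p under 0.05 in limma, 2 of the 6 had an upward and 1 a downward slope, where 9.15% and 18.9% of all genes did. With median-centring of the libraries the share of upward calls among all called genes was 41.7% in place of 54.1% over days 0 to 5, and 45.9% in place of 33.1% over days 0 to 6. It was 15.6% over days 0 to 6 with the length correction, and the 3 members that rose over days 0 to 5 rose under each of these scalings.

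No member had a called bend over days 0 to 5. In limma, 0 of the 6 passed, against 0.0166% of all genes, and 0 passed with voom weights. At an unadjusted p under 0.05, 1 bent upward (Igfbp7, 0.38 ± 0.058 per day squared, limma adjusted p = 0.0670) and 3 downward (Igf1r, Igfbp2 and Igfbp4), where 7.12% of all genes bent upward and 12.6% downward. Without day 1, Igfbp7 (limma adjusted p = 0.0336), Igf1r (limma adjusted p = 0.0340) and Igfbp4 (limma adjusted p = 0.0353) passed. In that fit 144 of all 12071 genes passed upward and 404 downward.

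By size alone, the number of the 6 genes at least 4-fold higher than on day 0 was 0, 2, 3, 3, 4 and 3 across days 1 to 6. Among all listed genes the share was 2.22%, 8.43%, 9.6%, 11.4%, 12.7% and 9.54% across the same days. The 4 genes of day 5 were Igfbp3, Igfbp4, Igfbp5 and Igfbp7. At least 4-fold lower were 0 of the 6 genes on days 1 to 5, against 1.11%, 2.58%, 3.94%, 4.57% and 4.66% of all listed genes across those days. On day 6 it was 1, Igf1r (log2 −3.25, counting interval −3.76 to −2.77), against 27.1% of all, or 15.3% of all with median-centring. With the length correction Igf1r (−1.65) was no longer 4-fold lower on day 6, Igfbp2 was (−3.64), against 24.0% of all, and Igfbp7 (1.68) was no longer 4-fold higher. These single-day differences have no replicate check. In these whole-culture samples, more cells expressing a gene and more RNA per cell cannot be told apart.

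**Figure D2:**
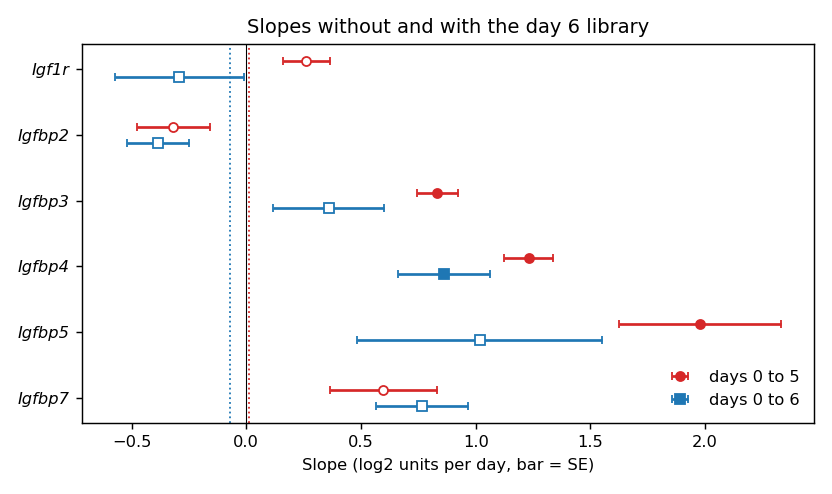
Slope of each gene in log2 units per day (x axis, bars are SE) over days 0 to 5 (circles) and days 0 to 6 (squares). Filled symbols passed the test at a limma adjusted p under 0.05, and dotted lines mark the median of all 12071 genes; Igfbp3 and Igfbp5 are filled without day 6 and open with it, and Igf1r lies on either side of 0.

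The make-up of the binding protein genes differed between days, with Igfbp2 leading up to day 3 and Igfbp4 and Igfbp5 leading on days 4 and 5. The summed level of the 5 binding protein genes was 2173, 2749, 6858, 4437, 5175, 8500.0 and 2483 normalized reads per kilobase across days 0 to 6. Igfbp2 made up 91.3%, 88.6%, 80.7%, 46.9%, 19.1%, 10.4% and 23.0% of that sum across the same days. Its share was thus lower on each day up to day 5. Igfbp5 held 35.6% on day 5, against 0.272% on day 0, and Igfbp4 held 35.3%, against 2.39%. The share of Igfbp3 was 13.8% on day 5, against 2.97% on day 0, and that of Igfbp7 4.82%, against 3.05%. On day 6 Igfbp4 held the most, 36.6%, with 34.1% for Igfbp7 and 1.96% for Igfbp5. The share of Igfbp7 counts only the transcript used. These shares compare genes within a library, so the scaling between libraries does not enter, but a length effect such as that of day 6 does.

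**Figure D3:**
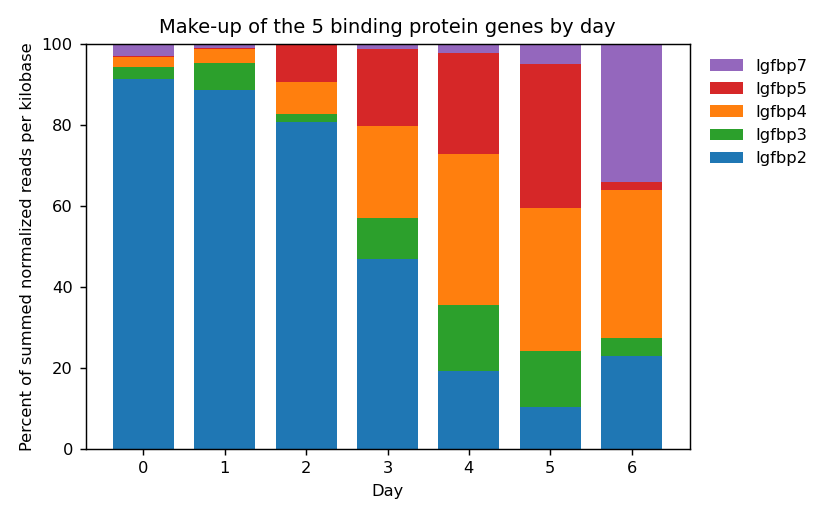
Share of each binding protein gene in their summed normalized reads per kilobase (y axis, percent) by day (x axis), 1 library per day. On day 5 Igfbp5 held 35.6%, Igfbp4 35.3% and Igfbp2 10.4%, against 91.3% for Igfbp2 on day 0.

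Ratios within a library showed when the order of the genes turned. Per kilobase, the log2 ratio of Igfbp5 to Igfbp2 was −8.39, −8.85, −3.16, −1.30, 0.38, 1.78 and −3.55 across days 0 to 6. Its counting interval was 0.30 to 0.48 on day 4 and 1.68 to 1.87 on day 5, against −9.15 to −7.73 on day 0. Igfbp4 crossed Igfbp2 at the same step, with a ratio of 0.97 on day 4 (0.87 to 1.06), against −1.04 on day 3 (−1.16 to −0.93). Igfbp3 stood above Igfbp2 on day 5 (0.41, 0.30 to 0.52), against a ratio of −0.22 on day 4 (−0.33 to −0.12). Igfbp5 and Igfbp4 could not be separated on day 5 (0.015, −0.031 to 0.061). Per kilobase, the summed level of the binding protein genes was 26.3, 26.6, 31.5, 15.9, 24.8, 46.5 and 285 times that of Igf1r across days 0 to 6. Early on, most of that sum was Igfbp2. On day 0 Igf1r (82.6) stood below Igfbp2 (1985) but above Igfbp3 (64.4), Igfbp4 (52.0), Igfbp5 (5.90) and Igfbp7 (66.2). The day 6 ratio rests on 38 Igf1r reads.

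On day 6 the long transcripts Igf1r and Igfbp5 stood far below day 5. The log2 difference of day 6 from day 5 was −5.96 for Igfbp5 (62.1-fold lower, counting interval −6.25 to −5.68), −4.39 for Igf1r (21.0-fold lower), −3.46 for Igfbp3, −1.72 for Igfbp4 and −0.63 for Igfbp2, and 1.05 for Igfbp7 (2.07-fold higher, 0.84 to 1.25). This order follows transcript length except that Igfbp5 lies below the longer Igf1r. After correction for length the differences were −4.47, −2.40, −3.94, −2.66, −2.87 and −1.36 in the same order, against a median of −1.20 over all genes. All 6 lay below that median, and the upward difference of Igfbp7 was turned by the correction. The part of library quality in these values was not tested.

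**Figure D4:**
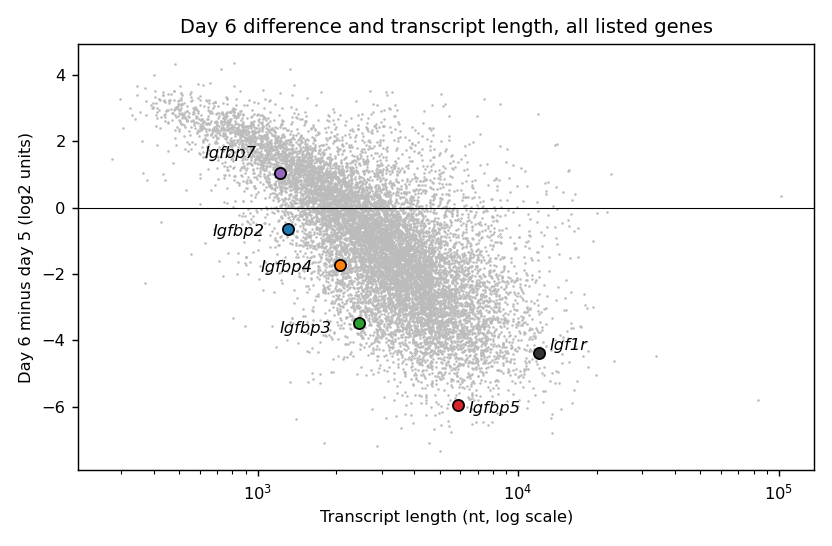
Day 6 minus day 5 in log2 units (y axis) against transcript length in nt (x axis, log scale) for the 12071 listed genes in grey, with the 6 genes in colour. Long transcripts lie lower, Igfbp5 is at −5.96 and Igfbp7, with 1219 nt, at 1.05.

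Both IGF ligand genes listed rose over days 0 to 5, and so did both other receptor genes listed, where 25.9% of all genes rose. Ins1, Ins2 and Insrr were sought but were not among the listed genes. Igf2 stood at 15.87 on day 5, against 6.33 on day 0 (slope 2.04 ± 0.15, limma adjusted p = 0.00190). Per kilobase it had 19.97, 67.3, 541, 3577, 8465, 14859 and 3834 normalized reads across days 0 to 6, below the sum of the 5 binding protein genes up to day 3 and above it from day 4 on. Igf1 had 8.08 on day 5, from 227 reads, against 3.75 on day 0, from 7 reads (slope 1.11 ± 0.23, limma adjusted p = 0.0100). Igf2r, which clears IGF2, rose by 0.60 ± 0.040 (limma adjusted p = 0.00190) and Insr, the insulin receptor, by 0.37 ± 0.057 (limma adjusted p = 0.00414). Relative to Igf1r in the same library, Igf2r per kilobase had a log2 ratio of 2.94 on day 5 (counting interval 2.86 to 3.01), against 1.21 on day 0 (1.06 to 1.37). With day 6, Igf2 rose (1.51 ± 0.28, limma adjusted p = 0.0302) and Igf1, Igf2r and Insr were not called.

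Among 7 listed genes for partners, proteases and clearance of the binding proteins, 2 rose and 1 fell over days 0 to 5, near the shares of all genes (25.9% and 22.1%). Adamts1, a secreted metalloprotease, rose by 1.53 ± 0.17 (limma adjusted p = 0.00269) and Adam12, whose human protein cleaves IGFBP3 and IGFBP5, by 0.88 ± 0.18 (limma adjusted p = 0.00918), while Adam28 fell by 0.33 (limma adjusted p = 0.00700); Adam12 was added to the named genes after its value was seen. Pappa, the protease of IGFBP4, had a slope of 0.23 ± 0.097 (limma adjusted p = 0.0857), with 7.52 on day 5, against 5.90 on day 0. Of 5 listed genes with a related low-affinity domain, 2 rose, the matrix-associated genes Wisp1 (1.39, limma adjusted p = 0.00315) and Cyr61 (0.80, limma adjusted p = 0.0313), and 0 fell, against the same shares of all genes. Htra1 was counted in both lists. Igfals, Pappa2, Stc1 and Stc2 were sought for the first list but were not among the listed genes. The same held for Nov, Wisp2, Wisp3, Htra3, Esm1 and Kazald1, sought for the second list.

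Of 10 adaptor and substrate genes downstream of the receptor, 3 rose and 2 fell over days 0 to 5, near the shares of all genes (25.9% and 22.1%). Irs4 was sought but was not among the listed genes. Irs1, an insulin receptor substrate, rose by 1.42 ± 0.15 (limma adjusted p = 0.00248), with 9.76 on day 5, against 3.26 on day 0, and Grb10, an adaptor that dampens the receptor, rose by 0.49 (limma adjusted p = 0.00772). Irs2 stood at 8.69 on day 5, against 6.85 on day 0 (slope 0.35 ± 0.18, limma adjusted p = 0.151), and Socs2, a signalling inhibitor, fell by 1.15 (limma adjusted p = 0.00307), with 4.16 on day 5, against 10.16 on day 0. Of 19 PI3K, AKT and mTOR genes, 8 rose and 4 fell, among them Akt1, a kinase at the centre of the pathway, upward (0.33, limma adjusted p = 0.00366) and the transcription factor gene Foxo4 downward (−0.27, limma adjusted p = 0.00814). The median slope of these 19 was 0.089. Of the 3 IGF2 mRNA-binding genes, Igf2bp2 rose (0.24, limma adjusted p = 0.0254), Igf2bp1 fell (−0.21, limma adjusted p = 0.0173) and Igf2bp3 had a slope of 0.35 (limma adjusted p = 0.0561). The median slope was 1.57 for the ligands, 0.49 for the other receptors, 0.38 for partners and proteases, 0.15 for adaptors, 0.24 for the IGF2 mRNA-binding genes and 0.43 for the genes with a low-affinity domain, against 0.013 over all genes. In the 6 lists after the ligands, the one gene called over days 0 to 6 was Socs2, which fell (−0.95, limma adjusted p = 0.0209).

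**Figure D5:**
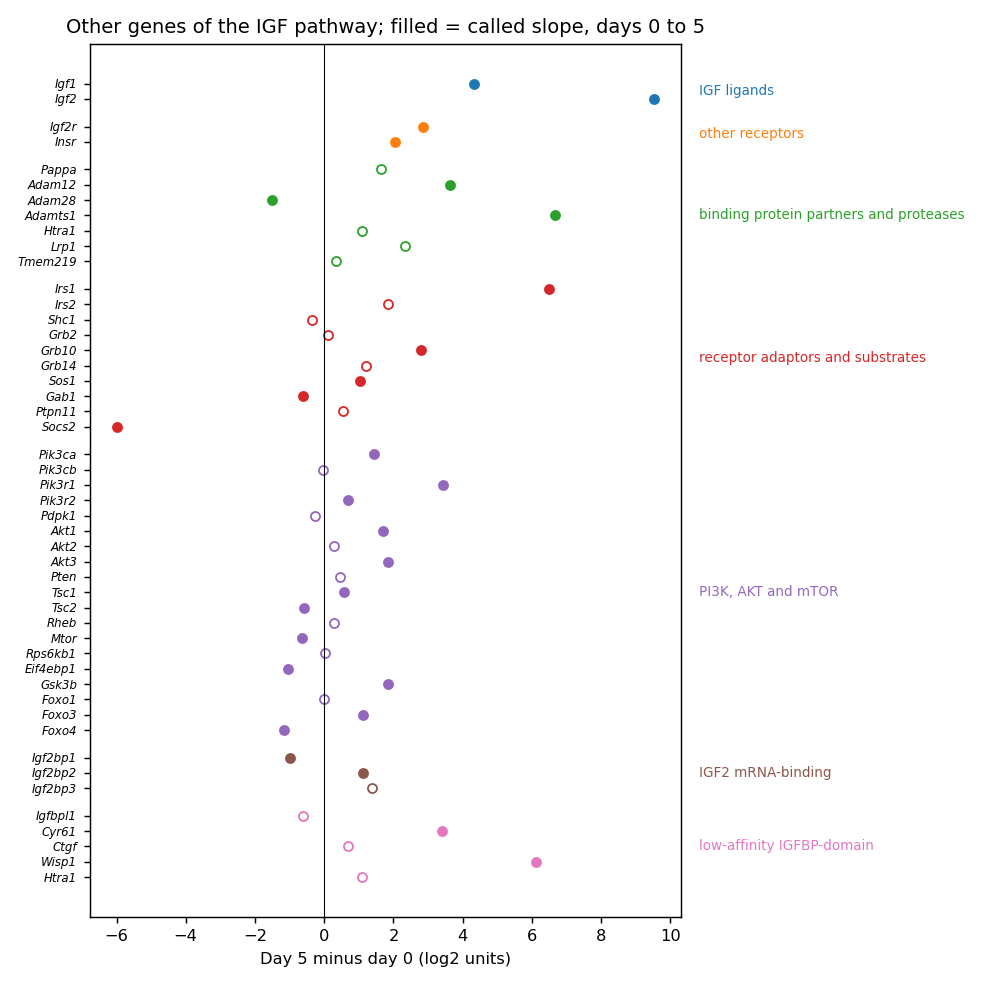
Day 5 minus day 0 in log2 units (x axis) for other genes of the IGF pathway, grouped by list (y axis), 1 library per day. Filled points have a called slope over days 0 to 5 (limma adjusted p under 0.05); the ligand gene Igf2 lies highest and Socs2, which fell, lowest.

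The 6 genes fell into several courses. Across the 6 libraries of days 0 to 5 Pearson's r was 0.97 between Igfbp4 and Igfbp5, 0.92 between Igfbp3 and Igfbp4, 0.89 between Igf1r and Igfbp5, −0.89 between Igfbp2 and Igfbp7 and −0.32 between the chromosome 1 neighbours Igfbp2 and Igfbp5, all as descriptions of libraries that share their depth. The genes with the most similar course among 3113 compared were Mex3b (0.997), Carhsp1 and Plscr3 for Igfbp5, Col11a1 (0.999), Laptm4a and Serinc3 for Igfbp4, and Tapt1 (0.996), Perp and Csnk1g1 for Igfbp3. For Igf1r they were Amotl2 (0.994), Cubn and Slc38a1, for Igfbp2 Fsd1 (0.965), Jub and Abca2, and for Igfbp7 Ak1 (0.949), Sdc1 and Igf2bp2, among 3114.

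Markers of other cell types moved over the same days, where 25.9% of all genes rose and 22.1% fell over days 0 to 5. Of 8 extraembryonic endoderm markers 6 rose over days 0 to 5, and Sox7 and Sox17 did not pass. The log2 of the summed level of the 8 was 13.51, 13.86, 16.39, 18.07, 18.09, 17.61 and 13.50 across days 0 to 6. Most of it on day 3 came from the matrix genes Col4a1 (16.77), Lamb1-1 (16.12) and Sparc (16.03). Of 6 fibroblast and smooth muscle markers 5 rose, with sums of 9.61, 9.11, 11.98, 14.76, 14.40, 14.96 and 15.94. Of 5 neural markers 2 rose (sums 11.07 to 12.02), of 2 listed liver markers 2 rose, Ttr and Apoa1 (sums 3.95 to 10.95), and of 2 listed blood and endothelial markers Pecam1 fell (sums 6.85 to 10.37). The liver markers Alb and Afp and the blood and endothelial markers Cdh5 and Hbb-bh1 were sought but were not among the listed genes. The lowest listed markers were Nanog and Sox1 on day 6, both at the lowest value of that library (1.46), which is listed as 1 read and could stand for 0 if a constant had been added. The part of these cell types in the levels of Igf1r and the binding protein genes was not tested.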

How the data were processed

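Per the submitters' processing notes, reads were aligned with BWA 0.7.3 to mm9. No source used here names the counting tool, the strand setting or the scaling. The deposited log2 values, 1 column per day, were raised from the log and divided by the lowest value of each library, taken as 1 read; 100% of values up to 1000 reads then lay within 0.05 reads of a whole number in each library, and each of the 15296 transcripts then had at least 1 read in every library, unless a constant had been added to the counts. The 2124 symbols with several transcripts were represented by the one with the highest mean. No filter on low values was used, since Igfbp7 lies below the 40th percentile of the mean. Lines, and lines with a squared-day term, were fitted to all 12071 symbols in R 4.3.3 with the package limma 3.58.1 (moderated variances with a trend on the mean; 4, 5 and 3 residual degrees of freedom for the line over days 0 to 5, the line over days 0 to 6 and the bend), with Benjamini-Hochberg adjustment over all symbols, and called at an adjusted p under 0.05. Tested on simulated data with 12071 genes, slopes of 0.5 over days 0 to 5 were recovered in 64.5% and slopes of 1 in 91.5% of 200 changed genes. Slopes of 0.25 were recovered in 0%. The 200 changed genes are a far smaller share than the 48% called over days 0 to 5 in the data, so these recoveries cannot be carried over to the data. There, some slopes below 0.25 were called, such as that of Igf2bp2 (0.24, limma adjusted p = 0.0254). A member without a call, such as Igf1r, is not thereby shown to be flat. Over days 0 to 6, slopes of 0.5 were recovered in 27% and slopes of 1 in 78.5%. Single days were compared by size, with Clopper-Pearson intervals at 95%. Genes named were all members, fixed pathway examples, up to 2 more per list by smallest p, and the 3 most similar courses among symbols above the 40th percentile that ranged by at least 1 log2 unit. Members and lists were chosen with earlier results of these data known. The alternatives were leaving out each library, median-centring, quantile normalization, the 40th percentile filter, the longest transcript, a smooth correction for length, 1 read added, and voom weights.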

Additional observations from a re-analysis of the deposited data

How the results depend on the processing

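No paired analysis was possible because each day had 1 library. Over days 0 to 5, 3 to 4 members rose and 0 to 1 fell when a library was left out, and 1756 to 3382 of all genes rose and 1521 to 2681 fell; the 40th percentile filter left 1858 rising genes. Over days 0 to 6, leaving out a library gave 0 to 3 rising members, 0 to 3132 rising and 0 to 2662 falling genes. The rising members were 0 with the 40th percentile filter, 0 with the length correction and 2 with voom weights. All genes then rose in 592 cases with median-centring, 485 with quantile normalization and 116 with the filter, and fell in 274 with the filter and 1641 with the length correction. For the bend, leaving out a library gave 0 to 1 members upward and 0 to 2 downward, and 0 to 144 and 0 to 404 of all genes. The slope of Igf1r over days 0 to 6 ran from −0.54 to 0.26 and the bend of Igfbp3 from −0.077 to 0.065 in these fits; its bend was 0.0038 with median-centring and 0.033 with quantile normalization, against −0.0042. With quantile normalization 1 member, Igfbp7, was at least 4-fold below day 0 on day 2. The causes were not tested. The median log2 difference of all genes from day 0 was 0.13 on day 5 and −0.71 on day 6 as deposited, and −0.16 and 0.14 with median-centring, so directions of small differences depend on the scaling; on day 5 each of the 6 members kept its direction. Depth limits Igfbp5 on days 0 and 1, Igfbp7 on days 0 to 3 and Igf1r on day 6, which rest on 15 to 42 reads.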
